A study of Mus musculus with 6 samples.

Results

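The genes of antigen presentation by the major histocompatibility complex (MHC) were followed through 6 single-cell libraries of developing mouse lung. The 10 genes, of 31053 in the count tables, were taken from a list. H2-K1, H2-D1 and B2m encode the class I molecule, Tap1, Psmb8 and Psmb9 the machinery that prepares its peptides, and Cd74, H2-Ab1, H2-Aa and H2-Eb1 the class II molecule and its chaperone. They were measured in endothelial cells (ECs), defined as cells with at least 2 unique molecular identifiers (UMIs) of Pecam1 and Cdh5 together and 0 of Ptprc, and in the other cell classes of whole lungs. An EC with at least 2 UMIs of Gja4, an arterial connexin, of Gpihbp1, a capillary anchor of lipoprotein lipase, or of Car4, a marker of aerocyte capillary cells, was placed in that subset. A cell could stand in more than 1 subset.

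Class I molecules sit on almost every nucleated cell and show it peptides from its own proteins to cytotoxic T cells. The immunoproteasome cuts these peptides, a transporter brings them into the endoplasmic reticulum, and interferon gamma raises both. Class II molecules are the property of dendritic cells, macrophages and B cells, although alveolar type II cells of the lung also carry them, and Cd74 guards their groove until a peptide is loaded.

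The lungs of 4 libraries came from Cxcl12DsRed/+ mice, which carry a DsRed reporter in 1 copy of the chemokine gene Cxcl12, at embryonic day (E) 13.5, 15.5 and 18.5 and at postnatal day (P) 8. Lungs of several animals were pooled, and the sort took DsRed-positive ECs (CD31-positive, EpCAM- and CD45-negative) together with DsRed-positive cells lacking CD31. The other 2 libraries held unsorted cells of whole E18.5 lungs, labelled homozygous null (Cxcl12DsRed/DsRed) and heterozygous control (Cxcl12DsRed/+). All mice thus carried at least 1 reporter allele, and each condition had 1 library, so that no test between conditions was possible and the values below carry counting intervals (95%) only.

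The libraries held 63746333 to 117522172 UMIs. After filtering, 59793 cells remained, of which 210, 9451, 9116 and 8255 were ECs of the sorted libraries in order of age, and 2907 and 1899 ECs of the whole lungs labelled null and control. Pairs of libraries shared 17 to 50 barcodes. The median depth of an EC lay between 5665 and 8681 UMIs. Levels are given as UMIs of a gene per 1000000 UMIs of the population (CPM). All 8 endothelial markers exceeded 10 CPM in the ECs of every library, and 0.559 to 11.9% of ECs also passed the mesenchymal gate. Cxcl12 itself went against the labels of the whole lungs, with 19986 UMIs (192 CPM) in the library labelled null and 109 (1.27 CPM) in the library labelled control, so that no direction below can be assigned to a genotype. The sexes were unevenly pooled. A UMI of Xist was found in 41.4, 76.5, 22.3 and 96.7% of the sorted ECs from E13.5 to P8, and in 49.7 and 0.158% of those of the libraries labelled null and control.

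In GRCm38 the class II and processing genes H2-Ab1 (chr17:34257689-34269419), H2-Aa (chr17:34282744-34287823), H2-Eb1 (chr17:34305867-34316674), Psmb9 (chr17:34181987-34187764), Tap1 (chr17:34187553-34197225) and Psmb8 (chr17:34197721-34201454) form a compact stretch. The class I heavy chains H2-K1 (chr17:33996017-34000347) and H2-D1 (chr17:35262730-35267499) lie on either side of it, and B2m (chr2:122147686-122153083) lies apart. Tap1 and Psmb9 are transcribed away from each other from RefSeq starts 226 bases apart. Of the last 300 bases of each transcript, none of the 241 windows of 60 bases occurred in another gene for 9 members, whereas 22 windows (9.13%) did for H2-D1. The effect of this shared sequence on the H2-D1 count was not tested.

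The class I genes and H2-Aa share an arrangement in the 250 bases before their RefSeq starts. It consists of the letters TGACG, the core of a cyclic AMP response element, and after 20 bases ATTGG, a reversed CCAAT box. This arrangement on either strand was found in 25 of 27025 RefSeq promoters (0.0925%), among them H2-K1, H2-D1 and B2m. With 21 bases between, as in H2-Aa, it was found in 16 promoters (0.0592%). Both spacings are those seen in these members, so that their own matches follow from the choice. The shares describe how rare the letters are and do not test the members. Tap1, Psmb8 and Psmb9 lack the arrangement in these bases and, like the class I genes, were higher in ECs at P8 than at E15.5. A link between the arrangement and the level of a gene was not tested. These sequences are shown because the class I genes have them in common. Capitals mark the matches (GRCm38.p6, each on the strand of its gene, at chr17:34000359-34000388, chr17:35262993-35263022, chr2:122147609-122147638 and chr17:34287867-34287897).
H2-K1: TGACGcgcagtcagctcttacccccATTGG
H2-D1: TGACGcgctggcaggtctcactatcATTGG
B2m: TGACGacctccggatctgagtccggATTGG
H2-Aa: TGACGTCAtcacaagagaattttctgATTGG

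The modules of H2-K1 and H2-D1 were identical at 23 of 30 bases, while B2m shared 13 with H2-K1 and 12 with H2-D1. The 8 members with a RefSeq promoter entry were then searched on both strands for elements of interferon and NF-kappaB signalling. GAAANNGAA, the core of an interferon response element, was found in B2m alone against 7.16% of all promoters, and GGGANTTNC, most of a kappaB element, in B2m and H2-Aa against 3.59%. The lengths of these motifs were set after their matches had been seen. TTCNNNGAA, the GAS element of interferon signalling, was found in Psmb8 alone against 7.18% of all promoters. TGACG by itself was found in 6 members and 17.9% of all promoters, and CCAAT in 7 members and 34.5%. For H2-D1, Psmb8 and Psmb9 the 150 bases before the RefSeq start lie wholly in a GENCODE exon of the same gene. The H2-D1 module and the Psmb8 GAS match fall in these bases, so that they need not lie upstream of every transcript. A match describes these letters and does not show that a factor binds them. A promoter without a match may still hold a like element in other letters. H2-K1 and H2-D1 both hold ggggattcccc and, after it, agtttcacttc, which the exact kappaB and interferon patterns above do not match. The searches thus do not show that the heavy chains lack such elements. The promoters of B2m (chr2:122147537-122147686), with the response element, the kappaB element and the module in capitals, and of H2-Aa (chr17:34287824-34287973), with the kappaB element and the module, are given to show that the class I light chain and a class II chain carry a like order of letters.
B2m: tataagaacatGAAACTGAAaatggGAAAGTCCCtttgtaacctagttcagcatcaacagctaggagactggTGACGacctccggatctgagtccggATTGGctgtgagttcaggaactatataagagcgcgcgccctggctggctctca
H2-Aa: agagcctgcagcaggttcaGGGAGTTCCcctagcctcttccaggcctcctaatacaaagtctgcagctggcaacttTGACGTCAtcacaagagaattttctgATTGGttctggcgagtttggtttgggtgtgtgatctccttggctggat

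Class I genes were present in ECs from the earliest time point and were higher around birth. From E13.5 to P8, H2-D1, a classical heavy chain, measured 389, 552, 1479 and 1779 CPM. H2-K1, the other classical heavy chain, measured 140, 151, 416 and 557 CPM. B2m, the invariant light chain, measured 166, 222, 353 and 337 CPM. The heavy chains thus formed a low pair of libraries and a high pair, and B2m did so over a narrower range. From E15.5 to E18.5 the log2 ratio of CPM + 0.5 was 1.46 for H2-K1 (interval 1.43 to 1.49) and 1.42 for H2-D1 (1.41 to 1.44) but 0.67 for B2m (0.64 to 0.70). The sum of the class I genes was 1.28 higher on this scale at E18.5 than at E15.5, and 0.25 higher again at P8. At the earlier step, from E13.5 to E15.5, it was 0.41 higher. For H2-K1 the interval of that first step (-0.07 to 0.29) reached 0, so that the E13.5 and E15.5 levels of this gene could not be told apart at this depth. H2-D1 was not confined to a minority of cells. After each cell was thinned to 2000 UMIs, an H2-D1 UMI was held by 50, 61.6, 92.0 and 94.8% of ECs in order of age, compared with 2.18, 4.11 and 22.9% of mesenchymal cells at the first 3 time points. These shares are not adjusted for free RNA, whose part in the mesenchymal shares was not tested. Without thinning, the EC shares were 86.2, 93.7, 98.9 and 98.6%.

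The genes that prepare class I peptides differed more than the class I genes. Tap1, a subunit of the peptide transporter, measured 1.11, 2.61, 19.8 and 16.8 CPM from E13.5 to P8. Psmb8, a catalytic subunit of the immunoproteasome, measured 6.10, 14.8, 92.3 and 142 CPM. Psmb9, another such subunit, measured 1.11, 5.11, 28.1 and 73.7 CPM. Tap1 was thus highest at E18.5 and the proteasome subunits at P8. At E13.5 the 210 ECs held only 2 UMIs of Tap1, 11 of Psmb8 and 2 of Psmb9, and these first values are imprecise. From E15.5 to E18.5 the log2 ratios were 2.70 for Tap1, 2.60 for Psmb8 and 2.35 for Psmb9. From E18.5 to P8 they diverged, at -0.23 for Tap1 (interval -0.35 to -0.11), 0.62 for Psmb8 (0.57 to 0.67) and 1.37 for Psmb9 (1.29 to 1.46). Over the whole interval from E15.5 to P8 the processing genes together were 3.34 higher and the class I genes 1.53 higher on the log2 scale.

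**Figure D1:**
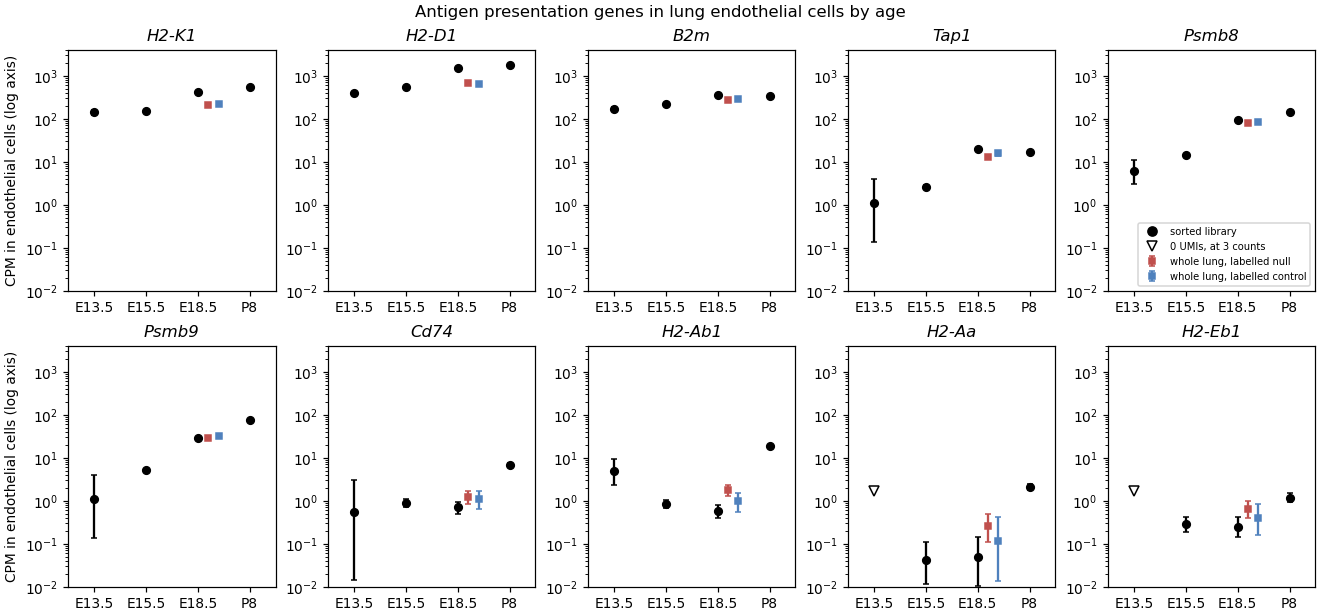
Level of each of the 10 genes in endothelial cells (CPM, log axis) by age, with 95% counting intervals. Black circles are the sorted libraries, squares the 2 whole-lung libraries of E18.5, and open triangles a count of 0 drawn at the limit of 3 counts. Class I and processing genes stand higher at E18.5 and P8 than at E15.5, the whole-lung squares lie below the sorted circle for H2-D1 and H2-K1, and H2-Ab1 is highest at P8.

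In the comparison of E18.5 with E15.5, 6 of the 10 genes reached 10 CPM in at least 1 of the libraries and 5 of them were past 2-fold higher, compared with 8.9% of 8507 genes. The exception was B2m, and none was past 2-fold lower, against 4.81% of genes. The median log2 ratio was 1.90 for the 6 members and 0.18 for all genes. From E18.5 to P8, 2 of 7 members (Psmb9 and H2-Ab1) were past 2-fold higher, against 4.17% of 8465 genes, and none lower, against 4.29%. From E15.5 to P8, 6 of 7 were past 2-fold higher, against 13.5% of 8561 genes and 7.41% lower, and the medians were 2.47 and 0.17. From E13.5 to E15.5 only Psmb8 of 4 members was past 2-fold higher, where the background was 2.61% higher and 4.55% lower. A gene could pass the 10 CPM filter through its higher library alone. Psmb8 did so over E13.5, Tap1 and Psmb9 over E15.5, and H2-Ab1 over E15.5 and E18.5. Counts that rest on such members are partly set by the filter, as are the background shares.

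Of the 7 class I assembly genes at 10 CPM, 4 were past 2-fold higher at E18.5, where 8.9% of all genes were higher and 4.81% lower. These were Tap2, the partner of Tap1 (9.42, 51.0 and 44.8 CPM from E15.5 to P8), Tapbp, which bridges the transporter and the class I molecule (24.3, 75.9 and 70.9 CPM), Tapbpl and the trimming peptidase Erap1. The general chaperones Calr (422, 446 and 384 CPM) and Canx (180, 174 and 169 CPM) stayed within 2-fold. Of 6 proteasome genes only Psmb10, the remaining catalytic immunoproteasome subunit (33.6, 97.9 and 164 CPM), was past 2-fold higher. The constitutive subunits that the immunoproteasome replaces were lower at E18.5 than at E15.5 by less than 2-fold, with Psmb5 at 433, 277 and 317 CPM, Psmb6 at 411, 291 and 346 CPM and Psmb7 at 164, 122 and 123 CPM. Of 7 other class I genes, 5 were past 2-fold higher (Fcgrt, H2-T23, H2-Q4, H2-M3 and H2-T22), as in H2-T23, a ligand of natural killer cell receptors (5.57, 33.7 and 63.1 CPM). No gene of these lists was past 2-fold lower. A listed gene below 10 CPM at E15.5, as Tap2 and H2-T23 were, passed the filter through E18.5 alone. The filter set the direction of such genes, and the counts are no support for a difference in them.

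Of 13 interferon gamma signalling genes at 10 CPM, 7 were past 2-fold higher at E18.5 than at E15.5, against 8.9% of all genes, the 5 with the largest ratios being Iigp1, Gbp7, Irgm1, Gbp3 and Gbp4. Irf1, a transcription factor that interferon induces, measured 18.7, 57.1 and 199 CPM from E15.5 to P8 and was highest at the last age. From E18.5 to P8, 4 of 14 were past 2-fold higher (Gbp4, Irf1, Socs1 and Gbp2), against 4.17% of all genes. In both counts, any gene below 10 CPM at the earlier age had its direction set by the filter. Nlrc5, the transactivator of class I genes, was close to the detection limit throughout, at 0.0629, 0.0999 and 0.373 CPM.

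Whole-lung ECs of E18.5 held less of the class I heavy chains than the sorted ECs of that age. H2-D1 measured 692 CPM in the library labelled null and 661 CPM in the library labelled control, below the 1479 CPM of the sorted E18.5 library and nearer to E15.5. H2-K1 measured 212 and 225 CPM against 416 CPM. Psmb8 (78.5 and 86.2 CPM) and Psmb9 (29.1 and 32.8 CPM), in contrast, were near the sorted values of 92.3 and 28.1 CPM. The log2 ratio of the sorted library over those labelled null and control was 1.10 and 1.16 for H2-D1 and 0.97 and 0.88 for H2-K1, but 0.23 and 0.10 for Psmb8 and -0.05 and -0.22 for Psmb9. B2m (0.40 and 0.29) and Tap1 (0.62 and 0.32) lay between, so that the difference did not follow the division into class I and processing genes. Of 6 members at 10 CPM, H2-D1 was the only gene past 2-fold higher in the sorted library, against 1.29% of 8536 genes over the library labelled null and 2.33% of 8643 over that labelled control, and no member was past 2-fold lower (2.51 and 2.93% of genes). The class I sum of the E18.5 whole-lung ECs, 1172 and 1175 CPM, thus stood nearer to the sorted E15.5 value (925 CPM) than to the sorted E18.5 value (2248 CPM), whereas their processing sum, 120 and 135 CPM, stood nearer to E18.5 (140 CPM) than to E15.5 (22.5 CPM). Sorting for the reporter, the pool of animals, the library and the CellRanger version (3.0.2 for the sorted E18.5 library, 3.1.0 for the whole lungs) cannot be told apart here. Neither can age, pool and library in the sorted series, where E13.5 also differed in CellRanger version from the later ages. Mesenchymal marker sums in the ECs were 1006 and 828 CPM in the whole lungs and 171 CPM in the sorted E18.5 library. The part of such RNA in the difference was not tested. With SoupX-adjusted values the class I sums of the whole-lung ECs were 1246 and 1417 CPM. Such values exist for the whole lungs only, so that no adjusted sorted value can be set beside them.

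Among sorted ECs, class I levels in the arterial and capillary subsets were further apart at E15.5 than later. The Gja4 subset held 192, 7162, 5953 and 6360 ECs from E13.5 to P8, the Gpihbp1 subset 4, 2629, 4199 and 6075, and the Car4 subset 852 at E18.5 and 1780 at P8. From E15.5 to P8 the class I sum was 1033, 2291 and 2715 CPM in the Gja4 subset and 749, 2211 and 2647 CPM in the Gpihbp1 subset, and in the Car4 subset 2388 and 2597 CPM at the latter 2 ages. The subsets overlapped, however, since 16.0, 27.6 and 63.0% of ECs passed at least 2 gates at these ages, and cells counted in both subsets draw their values together.

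In ECs that passed exactly 1 gate, H2-D1 was higher with Gja4 in every library. From E15.5 to P8 it measured 694, 1547 and 1984 CPM in the 5656, 3742 and 1525 Gja4-only cells and 302, 1298 and 1612 CPM in the 1119, 1752 and 936 Gpihbp1-only cells. In the whole lungs the values were 807 and 611 CPM in the library labelled null and 844 and 614 CPM in that labelled control. The log2 ratio of Gpihbp1-only over Gja4-only cells was -1.20 (interval -1.25 to -1.15), -0.25 and -0.30 in age order and -0.40 and -0.46 in the whole lungs, so that the distance between the subsets was largest at E15.5. Psmb9 had the opposite order in the same cells. From E15.5 to P8 it measured 3.57, 20.0 and 62.2 CPM with Gja4 only and 8.73, 40.1 and 80.1 CPM with Gpihbp1 only. In the whole lungs labelled null and control it measured 20.0 and 24.9 CPM with Gja4 only and 32.8 and 33.3 CPM with Gpihbp1 only. The log2 ratios were 1.18, 0.99, 0.36, 0.70 and 0.41, and the last had an interval (-0.02 to 0.88) that reached 0.

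Psmb8, like Psmb9 a catalytic subunit of the immunoproteasome, did not follow it. In the same order of libraries it measured 16.3, 100.1, 155, 107 and 122 CPM in Gja4-only cells and 16.2, 86.9, 135, 67.5 and 79.2 CPM in Gpihbp1-only cells. It was thus even at E15.5 and higher with Gja4 in the other 4 libraries. Tap1 was higher with Gpihbp1 in the sorted libraries, at log2 ratios of 0.57, 0.42 and 0.41, and uncertain in the whole lungs (-0.03 and 0.22, with both intervals across 0). B2m changed its order, being higher with Gja4 at E15.5 (242 and 182 CPM) and with Gpihbp1 at E18.5 (325 and 365 CPM). Few of these differences reached 2-fold. At 10 CPM in at least 1 of the subsets, H2-D1 was the only one of 4 members past 2-fold lower with Gpihbp1 at E15.5 and Cd74 the only one of 8 at P8, against 7.29 and 4.96% of genes, and 0 of 6 members were past 2-fold lower at E18.5 and in both whole lungs (6.52, 6.26 and 6.55%). None was past 2-fold higher in the 5 libraries (4.54, 7, 5.53, 6.6 and 7.38%). The call for Cd74 rests on few cells, since 321 of the 415 Cd74 UMIs of P8 ECs lay in 5 cells, described below.

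**Figure D2:**
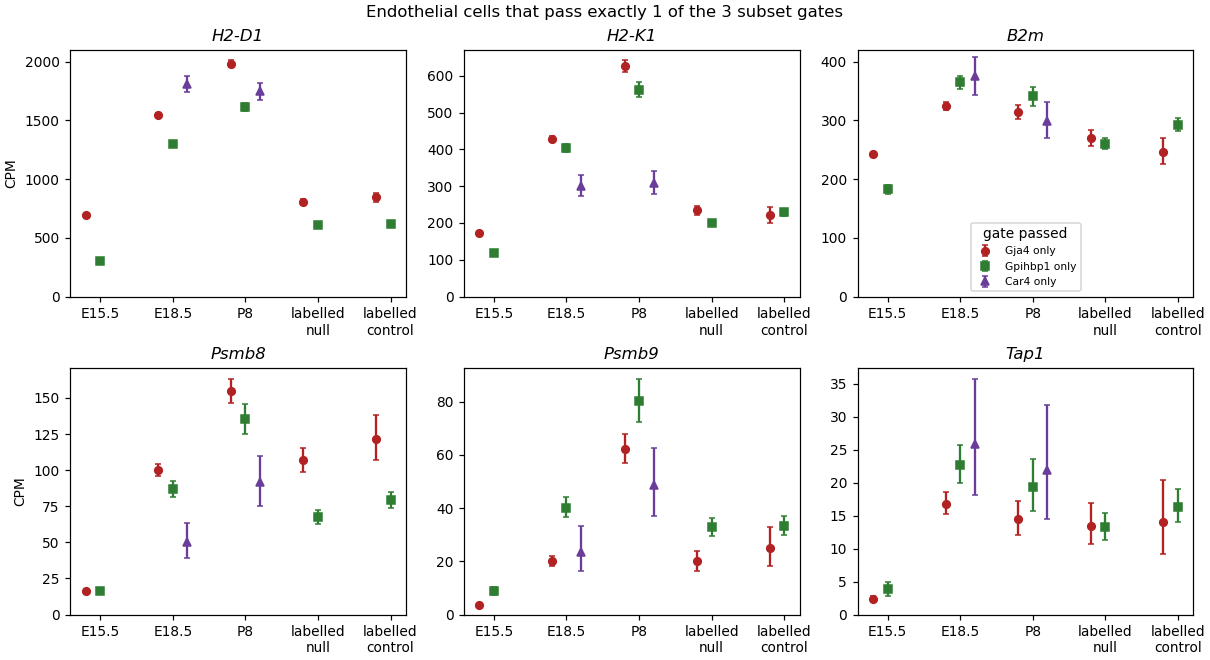
Level of 6 class I and processing genes (CPM, linear axis) in endothelial cells that pass the Gja4, Gpihbp1 or Car4 gate alone, by library, with 95% counting intervals. Subsets under 50 cells are left out. Between Gja4-only and Gpihbp1-only cells, H2-D1 lies higher in the former and Psmb9 in the latter in all 5 libraries, H2-D1 of E18.5 is highest in the Car4-only cells, and H2-K1 and Psmb8 lie lowest in the Car4-only cells of E18.5 and P8.

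Car4-only cells, of which there were 267 at E18.5 and 223 at P8, held more H2-D1 and less H2-K1 than Gpihbp1-only cells. H2-D1 measured 1808 and 1747 CPM at the 2 ages, and H2-K1 301 and 309 CPM. Relative to Gpihbp1-only cells, the log2 ratio of H2-D1 was 0.48 (interval 0.42 to 0.54) and 0.12 (0.05 to 0.18), and that of H2-K1 -0.42 (-0.57 to -0.28) and -0.86 (-1.02 to -0.71), so that the heavy chains went opposite ways at both ages. Psmb8 and Psmb9 were lower, at -0.79 and -0.75 at E18.5 and -0.56 and -0.71 at P8. At the 2-fold threshold, 0 of 6 members were past it in either direction at E18.5 (4.47% of genes higher and 7.05% lower) and only H2-Ab1 of 7 was past it, lower, at P8 (5.21% higher and 8.3% lower).

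Cycling ECs, those with at least 1 UMI of Mki67 or Top2a, showed the same contrast between H2-D1 and Psmb9. From E15.5 to P8, H2-D1 measured 427, 1196 and 1672 CPM in cycling and 646, 1532 and 1798 CPM in other ECs, and was lower in cycling cells each time. Psmb9 measured 6.16, 34.0 and 108 CPM in cycling and 4.31, 27.0 and 67.5 CPM in other ECs, and was higher in cycling cells each time. None of the 4 members at E15.5 or of the 6 at E18.5 was past 2-fold in either direction (4.83% of genes higher and 1.12% lower, and 5.67 and 0.607%), and at P8 only Cd74 of 8 was past it, higher (5.07 and 0.538%). Most Cd74 UMIs of P8 ECs lay in few cells, described below.

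ECs also stood above mesenchymal cells in class I at every age at which both were measured. From E13.5 to E18.5, mesenchymal cells held H2-D1 at 10.8, 23.2 and 145 CPM against 389, 552 and 1479 CPM in ECs. H2-K1 stood at 5.81, 9.01 and 37.6 CPM against 140, 151 and 416 CPM. B2m was nearer in level, at 55.1, 127 and 142 CPM against 166, 222 and 353 CPM. ECs made up 210 of 12726, 9451 of 11649 and 9116 of 9542 kept cells of these libraries, which have no values adjusted for free RNA. In the E18.5 whole lungs, mesenchymal H2-D1 was 65.2 and 74.0 CPM before such adjustment and 13.4 and 3.0 CPM after it. The part of free EC RNA in the sorted mesenchymal values, and in their order by age, was not tested. Of the members at 10 CPM, 3 of 3, 3 of 4 and 6 of 6 were past 2-fold higher in ECs, against 10.7, 10.9 and 14.5% of genes, and 0 were lower (9.73, 13.7 and 15.4%). Members below 10 CPM in mesenchymal cells, H2-K1 at E13.5 and E15.5 among them, passed the filter through ECs alone. Their direction was set by the filter, and these counts are no support for a difference in them. There were 8049, 757 and 223 such mesenchymal cells, and the 48 of P8 were too few for a comparison.

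The 5 genes below followed the class I sum most closely over the 12 sorted EC subsets of at least 50 cells, among 4547 genes of at least 50 CPM. These were Idnk (Pearson's r of log2 values 0.994), Tmem50a (0.993), March2 (0.993), Leprot (0.993) and Slco2a1 (0.992). The points share libraries and overlapping cells, and most of their spread is between ages. Slco2a1, a prostaglandin transporter, ranged from 12.6 CPM in the Gpihbp1 subset of E15.5 to 365 CPM in the Car4 subset of P8, a wider range than Idnk, a gluconate kinase gene, with 24.9 to 68.5 CPM.

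Class II genes were sparse in ECs until P8, where H2-Ab1 alone was prominent. H2-Ab1, a class II beta chain, measured 4.99, 0.860, 0.583 and 18.7 CPM from E13.5 to P8, the first from 9 UMIs. Cd74 (chr18:60803848-60812652), the invariant chain that accompanies class II molecules, measured 0.555, 0.891, 0.699 and 6.73 CPM, and H2-Aa, the alpha chain that pairs with H2-Ab1, 0, 0.0419, 0.0499 and 2.08 CPM. H2-Eb1, the other beta chain, measured 0, 0.283, 0.25 and 1.18 CPM. For the 0 of the last 2 genes at E13.5, the limit of 3 counts was 1.66 CPM and the exact interval reached 2.05 CPM. Over all ECs, H2-Ab1 and Cd74 were highest at P8. H2-Aa and H2-Eb1 were higher at P8 than at E15.5 and E18.5 but could not be ranked against E13.5. Over all ECs, the log2 ratio from E18.5 to P8 was 4.15 for H2-Ab1 (interval 3.66 to 4.68) and 2.59 for Cd74 (2.13 to 3.09). From E15.5 to E18.5 the class II sum of all ECs did not move beyond its interval (-0.68 to 0.05), a result that changed without a few cells described next.

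The Cd74 of P8 ECs came from few cells. At P8, 5 ECs held at least 100 UMIs of Sftpc, the surfactant protein C of alveolar type II cells, and had a median of 37912 UMIs. They held 321 of the 415 Cd74 UMIs, 55 of 128 of H2-Aa and 23 of 73 of H2-Eb1 but only 32 of 1151 of H2-Ab1. In the remaining 8250 ECs, Cd74 measured 1.53 CPM (interval 1.24 to 1.87), H2-Aa 1.19 CPM (0.931 to 1.49) and H2-Ab1 18.2 CPM (17.1 to 19.3). Cd74 and H2-Aa of these ECs could not be ranked against E13.5, where the intervals were 0.0141 to 3.09 CPM and 0 to 2.05 CPM. At E18.5, 9 ECs with at least 100 Sftpc UMIs held 30 of the 42 Cd74 UMIs and 33 of the 95 class II UMIs. In ECs with fewer, the class II sum was lower at E18.5, at 1.04 CPM (0.796 to 1.33), than at E15.5, at 2.08 CPM (1.80 to 2.39). Cd74 measured 0.892 CPM at E15.5 and 0.201 CPM at E18.5 in these ECs. The difference between the Gja4 and Gpihbp1 subsets at P8 in class II, a log2 ratio of -0.32, was 0.01 without the ECs that held 5 or more Cd74 UMIs, and the direction thus rested on these cells.

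Most P8 ECs with an H2-Ab1 UMI held none of its partners. Of the 8250 ECs with fewer than 100 Sftpc UMIs, 794 held H2-Ab1, and 739 of those (93.1%) held no UMI of Cd74, H2-Aa or H2-Eb1, while 22 held Cd74 and 40 H2-Aa. In the other 5 libraries 92.2 to 100% of the 8 to 77 ECs with H2-Ab1 held none of the partners, so that this share did not set P8 apart. The highest cell held 11 UMIs. These ECs held 11.9 H2-Ab1 UMIs per Cd74 UMI. The ratio was 9.0 for E13.5, from 9 and 1 UMIs, 0.965 for E15.5, 2.92 for E18.5 and 2.84 and 1.6 in the whole lungs labelled null and control, and 0.406 in the 11 immune cells of the P8 library. The low depth of H2-Aa and Cd74 in a cell limits how often they can be seen with H2-Ab1, but the summed ratio does not depend on that. After thinning, 3.19% of P8 ECs held H2-Ab1 (2.82 to 3.60), against 0.100% at E18.5 and 0.244% at E15.5, and 0 of 755 and 0 of 223 mesenchymal cells at these 2 earlier ages. Without thinning, 9.65% of P8 ECs did. Of the 29 P8 ECs with 5 or more class II UMIs, none held a UMI of the immune genes Tyrobp, Fcer1g or Laptm5. Only 47 of all 8255 P8 ECs held one, so that 0 among 29 is near the background and does not bear on their source. Ciita, the transactivator of class II genes, was close to the detection limit, at 0.114 CPM in P8 ECs and 0.0166 CPM at E18.5. The latter lies below the 0.0499 CPM that 3 UMIs of H2-Aa made in the same ECs. The 2 ages are thus not ranked for Ciita. None of the 6 class II pathway genes at 10 CPM was past 2-fold higher at P8 than at E18.5, and with 4.17% of all genes higher a count of 0 among 6 is near the background. Among costimulatory genes, Cd40 alone reached 10 CPM and measured 21.8, 12.4 and 35.5 CPM from E15.5 to P8.

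**Figure D3:**
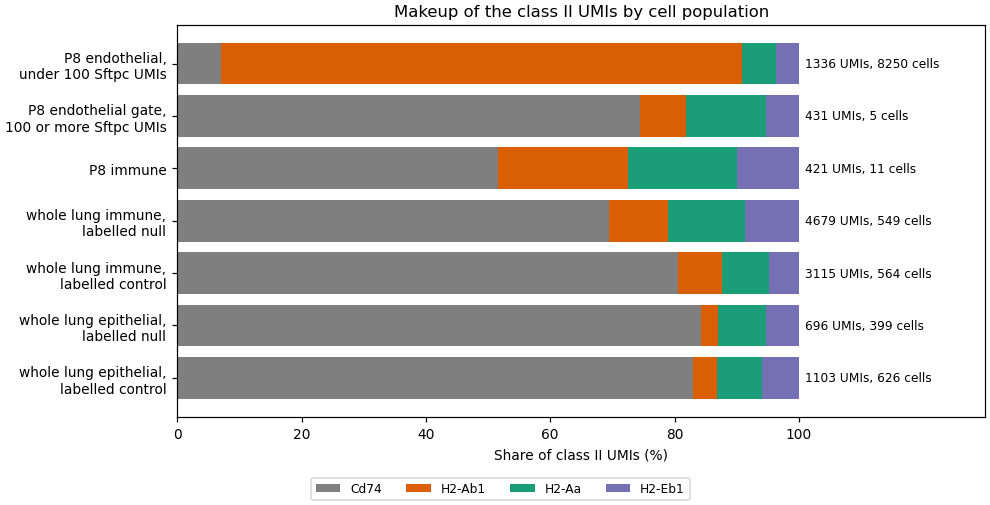
Share of each gene among the UMIs of the 4 class II genes (percent) in endothelial, immune and epithelial cells, with the UMIs and cells behind each bar at its right. H2-Ab1 makes up most of the bar of P8 endothelial cells with fewer than 100 Sftpc UMIs, whereas Cd74 is the largest part of the other bars.

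In the whole lungs, class I and class II genes separated the cell classes in different ways. B2m measured 715 CPM in 549 immune cells and 268 CPM in ECs of the library labelled null, and 733 CPM in 564 immune cells and 288 CPM in ECs of that labelled control. H2-D1 was nearly level, at 730 and 692 CPM and at 793 and 661 CPM, and H2-K1 was slightly lower in immune cells, at 195 and 212 CPM and at 203 and 225 CPM. Psmb8 (175 and 178 CPM) and Psmb9 (86.2 and 87.0 CPM) were higher in immune cells than in ECs. Of the 10 members, 7 were past 2-fold lower in ECs than in immune cells in each library, against 16.8% of 9412 genes and 15.8% of 9423, and none higher (23.7 and 25%). H2-K1, H2-D1 and Tap1 were the 3 that were not. Cd74, H2-Ab1, H2-Aa and H2-Eb1 were below 10 CPM in ECs and passed the filter through immune cells alone. The filter thus set their direction in this count.

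Epithelial cells held less class I than ECs, and mesenchymal cells the least of the heavy chains. H2-D1 measured 172 and 131 CPM in the 399 and 626 epithelial cells of the libraries labelled null and control, and 65.2 and 74.0 CPM in the 4515 and 4392 mesenchymal cells. H2-K1 measured 93.4 and 66.0 CPM in epithelial and 26.8 and 26.6 CPM in mesenchymal cells. B2m went the other way, with 63.5 and 44.5 CPM in epithelial and 149 and 136 CPM in mesenchymal cells. Against mesenchymal cells, 5 of 6 members were past 2-fold higher in ECs of the library labelled null and 6 of 6 in that labelled control (14.1 and 14.2% of genes), and 0 were lower (14 and 14.5%). Much of the low class I in these classes was removed by the authors' SoupX adjustment for free RNA, which left H2-D1 at 13.4 and 3.0 CPM in mesenchymal and 120 and 13.4 CPM in epithelial cells, and B2m at 110 and 32.4 CPM in mesenchymal and 19.2 and 1.47 CPM in epithelial cells. In the library labelled control, the class I sum in ECs over mesenchymal cells was 2.31 on the log2 scale with counts and 5.25 with adjusted values. The adjusted sums there were 1417 CPM in ECs and 36.8 CPM in mesenchymal cells, against 1246 and 135 CPM in the library labelled null. The adjustment was unequal, as it removed 18.6% of all EC UMIs in the library labelled null and 40.6% in that labelled control.

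**Figure D4:**
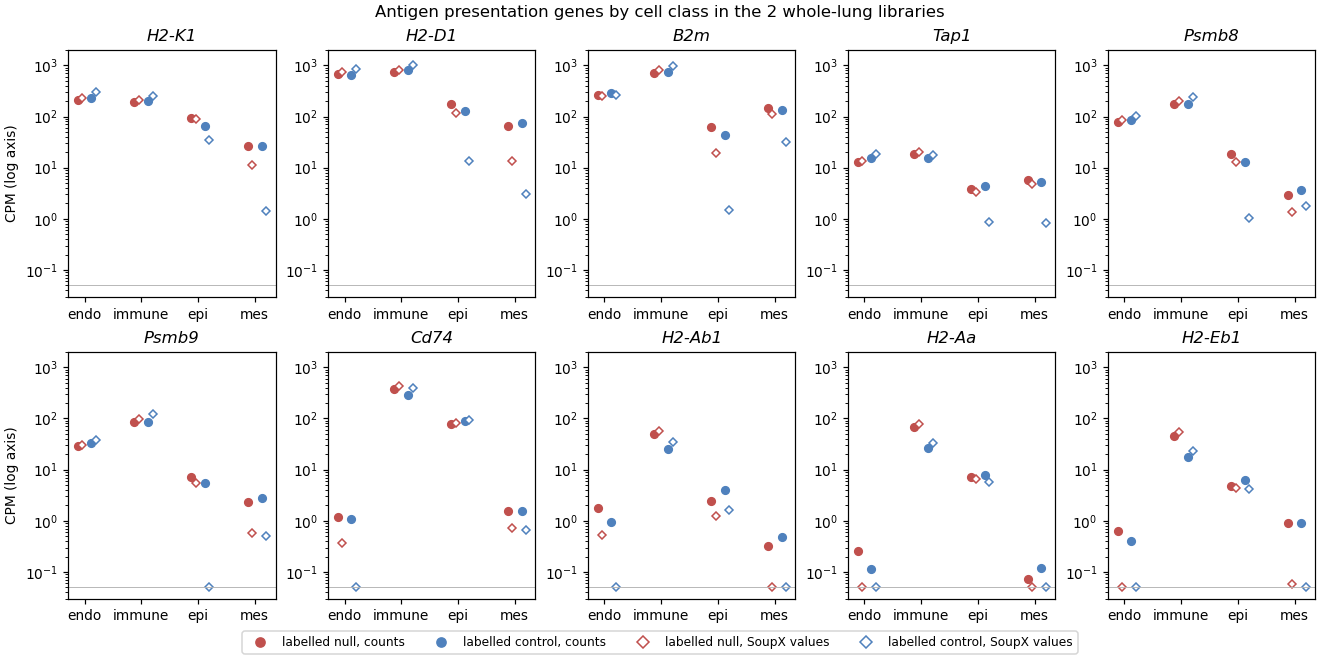
Level of each gene (CPM, log axis) in endothelial (endo), immune, epithelial (epi) and mesenchymal (mes) cells of the 2 whole-lung libraries, from counts (filled circles) and SoupX-adjusted values (open diamonds). Values of 0.05 or less are drawn on the grey line. Class II genes stand highest in immune and then epithelial cells, and the adjusted class I values of epithelial and mesenchymal cells in the library labelled control fall below the counts.

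Class II genes were highest in immune and then in epithelial cells of the whole lungs. Cd74 measured 373 and 288 CPM in immune cells, 76.6 and 87.8 CPM in epithelial cells, 1.21 and 1.08 CPM in ECs and 1.53 and 1.57 CPM in mesenchymal cells. Within epithelial cells it was lower in the 164 and 248 cells of the alveolar type I gate (Ager), at 30.4 and 47.1 CPM, and lowest in the 75 and 83 ciliated cells (Foxj1), at 9.27 and 18.3 CPM, than in the class as a whole. The class II chains of immune cells lay in few cells. Of 549 immune cells labelled null, 10 held at least 5 UMIs of H2-Ab1, H2-Aa and H2-Eb1 together and 99.4% of the 1427 UMIs of these chains, and 9 of 564 labelled control held 98.3% of 604. Cd74 was spread more widely, over 289 and 268 cells. Outside the chain-rich cells it measured 153 and 180 CPM in immune cells. By the same limit of 5 chain UMIs, 8 of 399 and 10 of 626 epithelial cells were chain-rich. They held 57.3% of 110 and 56.7% of 187 epithelial chain UMIs. H2-Ab1 was low in epithelial cells, at 2.48 and 3.93 CPM against 1.75 and 0.963 CPM in ECs. The gate of the B-lineage genes Cd79a and Cd79b, with 129 and 162 cells, held Cd74 at 178 and 142 CPM but only 2 and 0 UMIs of H2-Ab1. This gate overlapped that of Csf1r, a gene of macrophages and monocytes, which 440 and 464 immune cells passed. Cd74 UMIs of the Csf1r gate were 3132 and 2099, and 2755 and 1723 in its cells outside the Cd79 gate. The 410 and 378 Cd74 UMIs of the Cd79 gate thus lay mostly in cells passing both gates and do not describe B cells.

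In the class I genes of ECs the libraries labelled null and control lay close together. The log2 ratio of the class I sum was -0.00 (interval -0.03 to 0.02) and that of H2-D1 0.06 (0.03 to 0.10), but with SoupX-adjusted values they were -0.19 and -0.17. The processing genes were slightly lower in the library labelled null, with Tap1 at -0.30 (-0.52 to -0.07), Psmb8 at -0.13 and Psmb9 at -0.17. None of 6 members was past 2-fold in ECs, where 0.387% of 8530 genes were higher and 0.363% lower. In epithelial cells H2-K1, H2-D1 and B2m were 0.50, 0.39 and 0.51 higher in the library labelled null, with none of 5 members past 2-fold (0.482 and 0.193%). With SoupX-adjusted values these class I genes lay past 2-fold higher in the library labelled null. In the libraries labelled null and control they were 87.8 and 34.8 CPM for H2-K1, 119.5 and 13.4 CPM for H2-D1 and 19.2 and 1.47 CPM for B2m. The adjustment removed 17.0 and 38.7% of all epithelial UMIs and 18.6 and 40.6% of all EC UMIs in these libraries. The part of this unequal removal in the adjusted ratios was not tested. In mesenchymal cells none of 3 members was past 2-fold (0.478 and 0.257%). These intervals do not cover the spread between lungs.

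In immune cells the class II chains were higher in the library labelled null. H2-Ab1 measured 50.5 and 25.1 CPM, H2-Aa 67.0 and 26.8 CPM and H2-Eb1 46.3 and 17.3 CPM in the libraries labelled null and control, at log2 ratios of 0.99, 1.31 and 1.39, and Cd74 was at 0.38. H2-Aa and H2-Eb1 were past 2-fold higher, 2 of 10 members, against 0.754% of 7827 genes, and none was lower (0.319%). The chains came from the 10 and 9 cells described above, of which the richest held 431 and 270 UMIs, so that the difference was one of UMIs within these cells. The share of chain-rich cells was 1.82% (interval 0.877 to 3.32) and 1.60% (0.732 to 3.01), and did not separate the libraries. In immune cells with Csf1r and without Cd79a and Cd79b, 3 of 10 members were past 2-fold higher in the library labelled null (1.14% of genes higher and 0.358% lower). These cells held 435 of 440 H2-Ab1 and 402 of 403 H2-Eb1 UMIs of immune cells in the library labelled null. In that labelled control they held 138 of 219 and 91 of 151. The larger difference thus depends on which of the few chain-rich cells passed this gate.

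**Figure D5:**
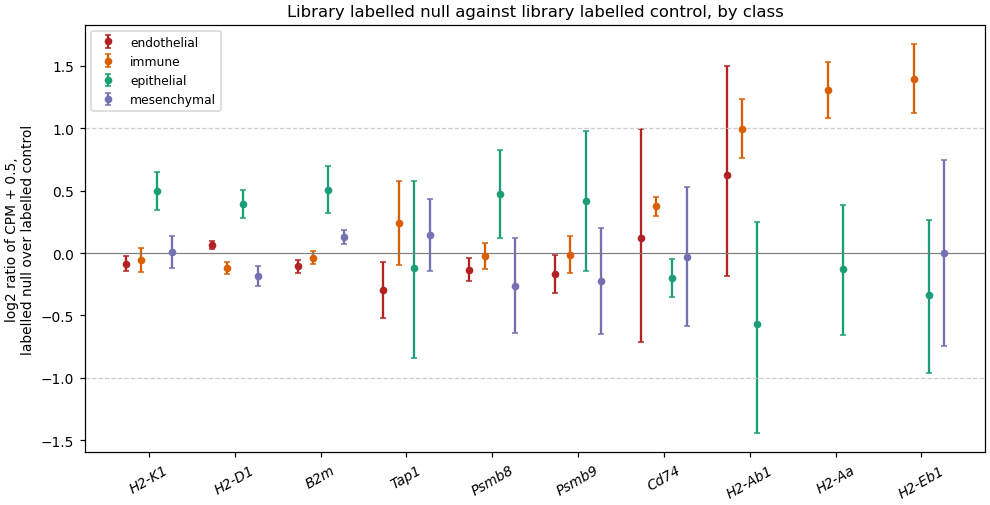
Log2 ratio of CPM + 0.5 in the library labelled null over that labelled control, by gene and cell class, with 95% counting intervals. Ratios with fewer than 15 UMIs in either library are left out, and dashed lines mark 2-fold. Class I and processing genes lie near 0 in endothelial and immune cells, and H2-Aa and H2-Eb1 of immune cells lie above the 2-fold line.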

How the data were processed

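The 6 libraries were made with 10x 3′ chemistry from pooled lungs. The authors ran CellRanger on mm10 and deposited, per gene and cell, raw counts of UMIs. By the file headers the version was 3.0.2 for the sorted E15.5, E18.5 and P8 libraries and 3.1.0 for E13.5 and the whole lungs. For the whole lungs the authors further deposited estimated counts, from which SoupX had taken the free RNA, so that they need not be whole. The labels of the whole lungs, and not the names of the deposited tables, which give the opposite genotypes, set the groups.

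Cells with at least 700 genes and 0.5 to 10% mitochondrial UMIs were kept. Gates used UMIs of named genes. Immune cells had at least 2 UMIs of Ptprc, epithelial cells of Epcam and Cdh1, and mesenchymal cells of Pdgfra, Pdgfrb and Tcf21, each below 2 UMIs for the other classes. Summed UMIs of a population were expressed as CPM with exact Poisson intervals, and ratios as log2 of CPM + 0.5 with intervals conditional on the summed counts. Shares carry exact Clopper-Pearson intervals. Intervals and limits (3 counts for a 0) cover counting error only, and depth sets their width. Background shares count genes of at least 10 CPM in 1 of 2 populations that were past 2-fold. Any gene, member or not, that passed this filter through its higher population alone had its direction set by the filter. No p-values were computed, as each condition had 1 library. Doublets were called with Scrublet (scanpy 1.11.5) and left out in a variant only. The calculations were tested on simulated data. Python 3.11.15, numpy 2.4.6, scipy 1.17.1 and pandas 2.3.3 were used. Gene positions come from GENCODE M21 and promoters from RefSeq (GRCm38.p6). Promoters of Cd74 and H2-Ab1 were not used here.

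The members and the pathway lists were chosen with earlier results of these data known. All 10 members are named. Of the lists, up to 5 genes past 2-fold in each direction are named per comparison, with further list genes given for contrast after their values were seen, and the 5 genes closest to the class I sum by Pearson's r. Of the listed symbols, H2-Ea-ps and Ifi30 were not matched. The splits by Sftpc, by the number of chain UMIs and by gate overlap were chosen after seeing the data. A gene of the interferon list is not reported here.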

Additional observations from a re-analysis of the deposited data

How the results depend on the processing

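No paired analysis was possible because each condition had 1 library. Of 90 alternative values for sums and background shares, 59 were counted as unchanged. Of 270 for single genes 204 were, and 17 were off by 1 or more on the log2 scale. Unchanged meant within the counting interval of the reported ratio. For background shares and for ratios without an interval it meant within a set distance of the reported value. The class I difference from E15.5 to P8 (log2 ratio 1.53) was 1.58 without cells holding immune UMIs, 1.51 without Scrublet calls, 1.43 as a mean of per-cell CPM, 1.35 without cycling ECs, 1.52 without ECs of the epithelial or mesenchymal gate and 1.61 in ECs with Xist and no Y-linked UMI. The processing difference (3.34) was 3.11 with a pseudocount of 5 CPM and 3.27 in ECs with Xist. The class II difference (3.5) was 3.21 as a per-cell mean, 2.25 with the pseudocount of 5, 3.06 without cycling ECs, 3.1 without ECs of other gates and 3.08 without ECs holding 5 or more Cd74 UMIs. Between Gpihbp1 and Gja4 cells at P8, class I (-0.04) was -0.22 in cells passing exactly 1 gate, and class II (-0.32) was -0.046 as a per-cell mean, -0.0051 without cycling ECs, -1.19 with exactly 1 gate, -0.037 with gates of 3 UMIs, -0.046 with thinned cells, -0.0061 without ECs of other gates and 0.0097, the opposite sign, without ECs holding 5 or more Cd74 UMIs. For single genes of this comparison the sign turned for Cd74 to 0.26 with gates of 3 UMIs and to 0.0051 without ECs holding 5 or more Cd74 UMIs, and for H2-Aa to 0.29 in thinned cells. ECs over mesenchymal cells in class I in the library labelled control (2.31) was 2.38 without Scrublet calls, 2.36 as a per-cell mean, 2.42 without ECs of other gates and 5.25 with SoupX-adjusted values. Labelled null over labelled control, the EC class I ratio (-0.0040) was 0.034 as a per-cell mean and -0.19 with SoupX-adjusted values, which also turned H2-D1 to -0.17, and the immune class II ratio (0.59) was 0.43 and 0.36. With at least 50 CPM, the share of EC genes past 2-fold higher was 0.239% and that of immune genes lower 0.131%. The causes were not tested. Scrublet called 0.00786% of cells at E13.5 and none at E18.5 or P8, and so did not work there, and called 3.38% at E15.5 and 5.31 and 5.16% in the whole lungs. The variants without ECs of other gates, with Xist or without Cd74-rich ECs were chosen after seeing the data.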
